A study of Mus musculus with 8 samples.

Results

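The genes described here carry fatty acids into the liver cell and through mitochondrial β-oxidation. They are 36 genes listed by name for their role in the pathway, out of 35275 genes counted, and all 36 were found in the count table. The rule itself uses no measured value, but the list was chosen with earlier results of these data known. RNA was measured in the livers of 4 Pcx L-/- mice, in which Albumin-Cre removes a floxed exon 10 of Pcx from hepatocytes, and of 4 littermates that carry the floxed alleles, Pcx f/f, which the sample labels call WT and which are called controls here. All mice were males, 9 weeks old and fasted for 24 h, of the strain given as C57BL/6 in the labels, with a Pcx allele that came from a C57BL/6NTac line, and each gave 1 library. Cre is driven by the albumin promoter, which is active in hepatocytes. Pcx in the other cell types of the liver was not measured apart.

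During a fast the liver takes up fatty acids released by adipose tissue and oxidizes them. CD36 and the fatty acid transport proteins bring fatty acids across the plasma membrane, liver fatty acid-binding protein carries them in the cytosol, and acyl-CoA synthetases join them to coenzyme A. The carnitine shuttle moves long-chain acyl groups into the mitochondrion, where repeated rounds of dehydrogenation, hydration, a further dehydrogenation and thiolysis release acetyl-CoA. Electrons from the acyl-CoA dehydrogenases pass through electron transfer flavoprotein and its dehydrogenase to the respiratory chain. Pyruvate carboxylase, the enzyme encoded by Pcx, uses pyruvate to make oxaloacetate, with which that acetyl-CoA condenses in the TCA cycle.

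Between 12016242 and 20023108 reads per library were counted on genes. Pcx, the targeted gene, had between 556 and 758 normalized counts in Pcx L-/- livers and between 14371 and 22059 in controls, or 3.6% of the control mean, so every library carried the genotype of its label. Normalized counts are read counts divided by the effective library size after TMM scaling, which aligns libraries on the bulk of genes. The TMM factors were 0.833 to 0.942 in controls, 0.970 in Pcx L-/- replicate 1 and 1.14 to 1.16 in Pcx L-/- replicates 2 to 4. Replicate 1 of the Pcx L-/- group stood apart from the other three and carried the most red blood cell RNA, with 5338 summed FPKM (reads scaled by transcript length and library size) over 5 marker genes against 317 to 1412 in the other libraries. The mouse numbers in the labels fell into a series of 500s, with control replicates 1 and 2 and Pcx L-/- replicate 1, and a series of 800s with the rest. The labels do not say what these numbers mark.

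In Pcx L-/- liver some of the listed genes of uptake, activation, the oxidation spiral and electron transfer fell by modest amounts, while a fatty acid transporter and an acyl-CoA synthetase rose. Of the 36 members 34 passed the filter on low counts and were tested, all but Cpt1b and Acss1. By the quasi-likelihood test of edgeR, with p-values adjusted over all 13168 genes tested and a threshold of 0.05, 2 members rose (Cd36 and Acsl4), 14 fell and 18 did not pass. The members that rose were 5.88% of those tested, where 14.1% of all genes tested rose, and the members that fell were 41.2%, where 13.5% of all genes fell. The median log2 fold change was -0.40 over the members tested and -0.01 over all genes tested. The fitted value was below 0 for 30 of the 34. A change of at least 1.5-fold was called for 2 members in the higher direction and 7 in the lower, where it was called for 8.92% and 8.79% of all genes. In 10 members (29.4%) no value of the Pcx L-/- mice fell within the control range or the reverse, which held for 27.6% of all genes tested.

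Abundant transcripts as a class were lower more often than others in these livers. Among the 1149 genes tested whose mean was at least 50 FPKM, a level chosen after the values were seen, 30.2% fell and 16.4% rose, with a median log2 fold change of -0.20. The 23 members in that class had 11 that fell (47.8%), none that rose and a median of -0.41.

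**Figure D1:**
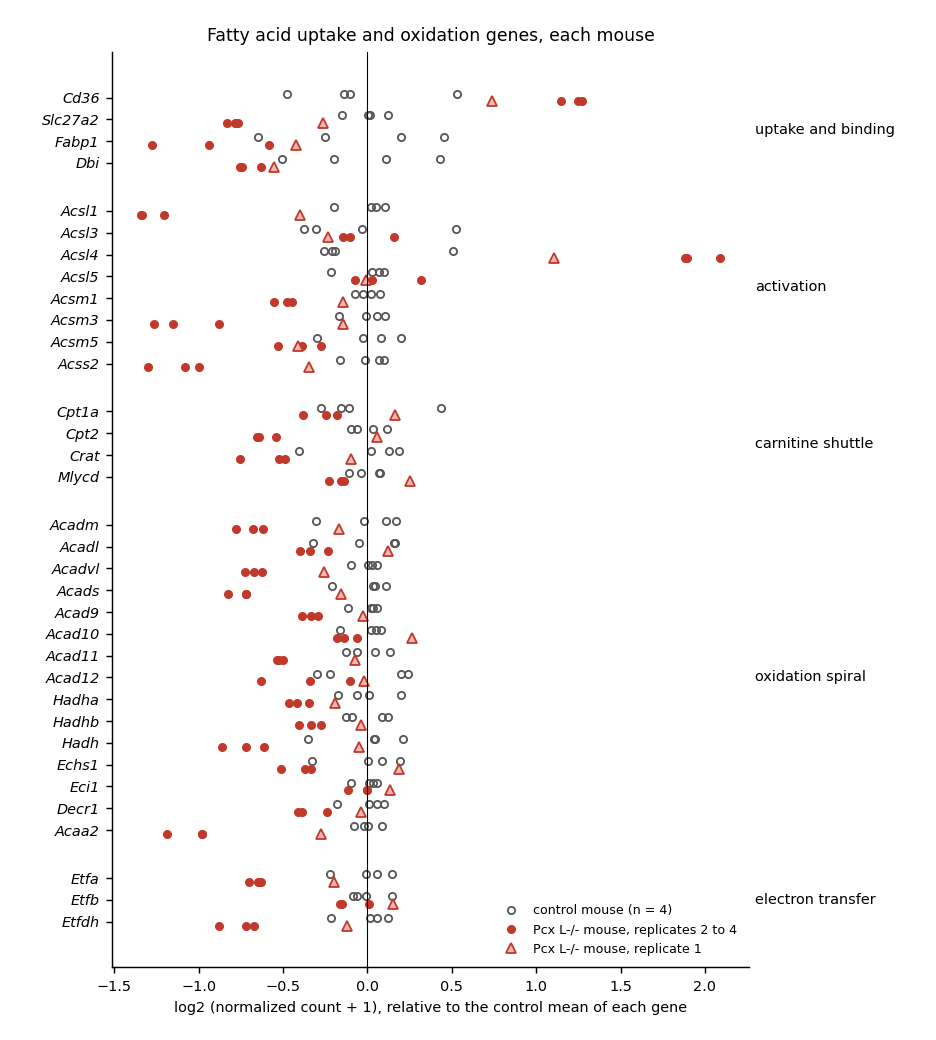
Normalized count of the 34 members tested in each mouse, as log2 (normalized count + 1) relative to the mean of the 4 controls. Open circles are controls, filled circles Pcx L-/- replicates 2 to 4 and triangles Pcx L-/- replicate 1, which lay nearest to the controls among the Pcx L-/- mice in 13 of the 14 members that fell and in both that rose.

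The Pcx L-/- mice were not alike. Over the 34 members, the median log2 level relative to the control mean was -0.50, -0.47 and -0.52 in Pcx L-/- replicates 2, 3 and 4, with 31, 31 and 30 members below that mean. In Pcx L-/- replicate 1 the median was -0.08, with 24 members below. Without this mouse 23 members fell, among them all 14 of the main comparison, and the same 2 rose, while over all genes 2370 of 13330 (17.8%) fell. Without Pcx L-/- replicate 2, 3 or 4 the members that fell numbered 5, 4 and 4, where 7.86%, 8.28% and 7.11% of all genes fell. Without control replicate 3 they numbered 6, where 9.19% of all genes fell. Cd36 and Acsl4 rose in each of these fits, and also when only mice of the 800s were compared (3 against 2), where 20 members fell and 15.8% of all genes did. With the mouse number series as a covariate 13 members fell, where 13.4% of all genes did, and the same 2 rose. Fabp1 (adjusted p = 0.0560) and Acsm5 (0.0517) then lost their calls and Hadh (0.0416) gained one. The 500s hold 1 Pcx L-/- mouse and give no test of their own.

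The direction of the smaller differences rested on how the libraries were scaled. With scaling by library size only, the median of all genes tested moved from -0.01 to 0.28, and 29.7% of genes were called higher against 6.61% lower. The members' median was then -0.12, 5 members fell (Slc27a2, Acsl1, Acsm3, Acss2 and Acaa2) and 4 rose (Cd36, Acsl4, Acsl5 and Eci1). Higher genes made up 81.8% of those called, against 51.1% with TMM scaling. Relative to the median of all genes, 30 of the 34 members lay below it with TMM, with library size only and with DESeq2's size factors, and the members' median was 0.39 to 0.40 under it (differences of -0.39, -0.40 and -0.39). A change of scaling moves all genes by nearly the same amount, and subtracting their median takes that out. These values therefore had to be alike across the scalings, and their likeness is no separate support.

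**Figure D2:**
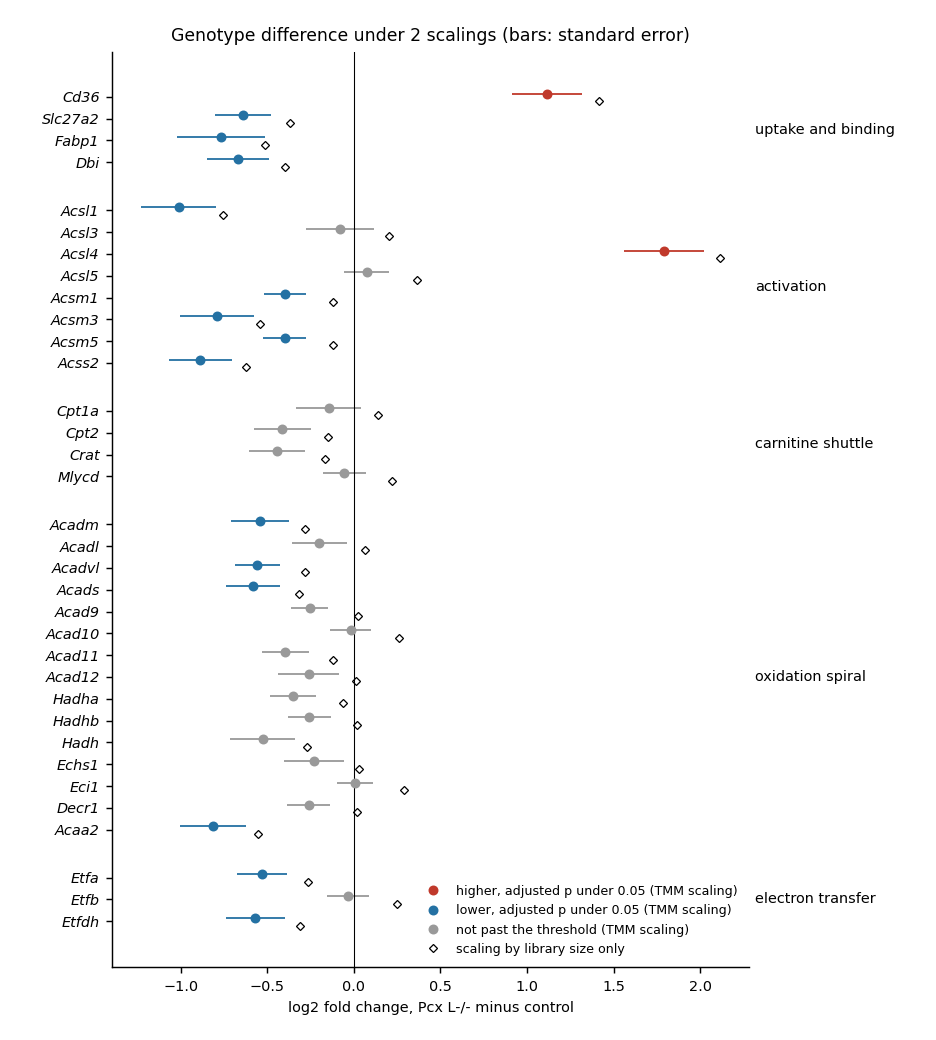
Log2 fold change (Pcx L-/- minus control) of each member tested, grouped by step, with bars for the standard error (SE). Filled points are the fit with TMM scaling, coloured by its call, and diamonds are the fit with scaling by library size only. The diamonds lie to the right of the points, and 11 of the 34 members change sign between the 2 scalings, none of them called in the TMM fit.

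All 4 genes of uptake and cytosolic binding passed the test, with Cd36 higher and the others lower, where 14.1% of all genes tested rose and 13.5% fell. With scaling by library size only, Cd36 rose and of the others only Slc27a2 fell, where 29.7% of all genes rose and 6.61% fell. Cd36, a scavenger receptor that takes up long-chain fatty acids (ENSMUSG00000002944, chromosome 5 from 17781690 to 17888801 of GRCm38), had 700, 885, 1411 and 906 normalized counts in control replicates 1 to 4. In Pcx L-/- replicates 1 to 4 it had 1627, 2162, 2317 and 2357. The highest control and the lowest Pcx L-/- mouse did not overlap, and the Pcx L-/- mean was 217% of control. This was a log2 fold change of 1.12 (standard error, SE, 0.20, with an adjusted p of 0.0033), and the adjusted p stayed between 6.74e-06 and 0.0136 over 20 alternative fits. Macrophages, endothelial cells and platelets also express Cd36. The summed FPKM of 6 macrophage markers was 76.1 to 126 in Pcx L-/- and 62.9 to 92.0 in control livers, with 1 of 6 called higher (Cd68, log2 fold change 0.86, adjusted p = 0.0289) and none lower, and that of 6 endothelial markers was 45.7 to 66.6 against 46.5 to 61.6, with none called. The part of other cell types in the rise of Cd36 was not tested.

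Slc27a2, a very long-chain acyl-CoA synthetase that also acts in fatty acid transport (chromosome 2 from 126552407 to 126588243), was abundant in every liver. Controls had 27565, 24598, 27297 and 29630.0 normalized counts, and Pcx L-/- mice 22714, 15336, 16051 and 15838. All 4 Pcx L-/- values lay below all controls, with Pcx L-/- replicate 1 close to the lowest of them. Slc27a2 fell by a log2 fold change of -0.64 (SE 0.16, adjusted p = 0.0139). The call was lost without Pcx L-/- replicate 3 (adjusted p = 0.0507) or replicate 4 (adjusted p = 0.0571), and over the 20 alternatives adjusted p lay between 0.00022 and 0.0571.

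Fabp1, the liver fatty acid-binding protein (chromosome 6 from 71199827 to 71205023), was the most abundant member per length (FPKM). Its normalized counts were 20462, 33345, 27978 and 15542 in controls and 18163, 10027, 12691 and 16214 in Pcx L-/- mice. The genotypes overlapped, because control replicate 4 lay below Pcx L-/- replicates 1 and 4. The log2 fold change of -0.77 (SE 0.25, adjusted p = 0.0429) passed the test, but only 8 of the 20 alternatives kept the call, with adjusted p from 0.00897 to 0.346. It was lost without control replicate 1 (0.0573), 2 (0.114) or 3 (0.109) and without Pcx L-/- replicate 2 (0.118), 3 (0.112) or 4 (0.0776). Among others, it was also lost with scaling by library size only (0.106) and with the mouse number series as a covariate (0.0560).

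Dbi, the acyl-CoA-binding protein (chromosome 1 from 120113280 to 120121078), had 3813, 5886, 4725 and 3075 normalized counts in controls and 2985, 2591, 2609 and 2824 in Pcx L-/- mice. The genotypes did not overlap, although control replicate 4 came close to the highest Pcx L-/- value. Dbi had a log2 fold change of -0.67 (SE 0.18, adjusted p = 0.0187). The call was kept in 12 of 20 alternatives, with adjusted p from 0.00207 to 0.322 over all of them. Among others, it was lost with scaling by library size only (adjusted p = 0.117). It was also lost without control replicate 3 (0.0533) or Pcx L-/- replicate 2 (0.0558), 3 (0.0560) or 4 (0.0517).

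Promoter windows of 300 bases, from 250 before to 50 after the transcription start, were taken from RefSeq on GRCm38.p6 for 31 members, and those of Acaa2, Decr1, Cpt1b, Acad9 and Crat were not analysed here. They were searched on both strands for a PPAR-type direct repeat (AGGNCA, any 1 base and AGGNCA again), an ERR-type motif (TCAAGGTCA) and a CARE-type motif (TGATGNAAN), letters known to be read by the nuclear receptors PPARα and ERRα and by ATF4. The ERR-type motif ends in AGGTCA, one form of the unit that the PPAR-type motif repeats, so these searches can overlap. The PPAR-type motif was found in 0.381% of all 32851 windows and in 1 member, Fabp1. The ERR-type motif was found in 0.423% of all windows and in no member, and the CARE-type motif in 3.95% and in 1 member, Echs1 (TGATGCAAT, from position -164 relative to the start). A match is a string of letters and not a site shown to be bound. The median GC content was 61.3% over the members' windows and 52.7% over all windows. Positions are counted from the RefSeq start. Bases upstream of that start are shown for the uptake member that rose and for the member with the PPAR-type match, 5′ to 3′ on the strand of the gene, chr5:17835897-17836146 (minus strand) for Cd36 and chr6:71199629-71199826 (plus strand) for Fabp1, with the matched letters, which read the motif on the opposite strand from position -67, in capitals. The RefSeq start used for Cd36 lies inside the gene as annotated, whose outer transcripts begin farther upstream. The RefSeq start of Fabp1 lies a short way inside its annotated first exon, and the stretch shown stops at the 5′ end of that exon.
Cd36: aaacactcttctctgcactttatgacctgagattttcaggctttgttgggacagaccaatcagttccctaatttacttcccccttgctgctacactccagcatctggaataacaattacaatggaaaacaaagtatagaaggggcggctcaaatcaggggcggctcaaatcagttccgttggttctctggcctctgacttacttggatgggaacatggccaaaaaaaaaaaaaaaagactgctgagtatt
Fabp1: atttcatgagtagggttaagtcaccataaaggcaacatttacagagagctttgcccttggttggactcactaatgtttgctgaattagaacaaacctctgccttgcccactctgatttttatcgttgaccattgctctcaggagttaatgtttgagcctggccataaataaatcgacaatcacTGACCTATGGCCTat

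Activation by coenzyme A held the strongest changes in both directions. Of 9 members 8 were tested, and 1 rose (Acsl4) while 5 fell (Acsl1, Acsm1, Acsm3, Acsm5 and Acss2), where 14.1% of all genes tested rose and 13.5% fell. With scaling by library size only, 2 rose and 3 fell, where 29.7% of all genes rose and 6.61% fell. Acsl3 (log2 fold change -0.08, adjusted p = 0.806) and Acsl5 (0.07, adjusted p = 0.715) did not pass. The median over the step was -0.40.

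Acsl1, the main long-chain acyl-CoA synthetase of hepatocytes (ENSMUSG00000018796, chromosome 8 from 46471037 to 46536051), had 25503, 21909, 26082 and 27040.2 normalized counts in controls. Pcx L-/- mice had 19066, 10877, 9922 and 9960.1. Pcx L-/- replicates 2 to 4 lay close together and far below all controls, and Pcx L-/- replicate 1 lay between them and the lowest control. The Pcx L-/- mean was 49.6% of control, with a log2 fold change of -1.01 (SE 0.22, adjusted p = 0.0067), which was called in all 20 alternatives (adjusted p from 2.36e-05 to 0.0291).

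Acsl4, a synthetase that prefers arachidonate and other polyunsaturated fatty acids (ENSMUSG00000031278, chromosome X from 142317993 to 142390535), moved the other way. Controls had 940.4, 928, 899.7 and 1527 normalized counts and Pcx L-/- mice 2314, 3993, 3956 and 4570.3. The genotypes did not overlap, control replicate 4 stood above the other controls, and Pcx L-/- replicate 1 was the lowest of its group. Acsl4 had a log2 fold change of 1.79 (SE 0.23, adjusted p = 0.00082), with the Pcx L-/- mean at 345% of control, and adjusted p lay between 9.75e-12 and 0.0051 over the 20 alternatives.

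**Figure D3:**
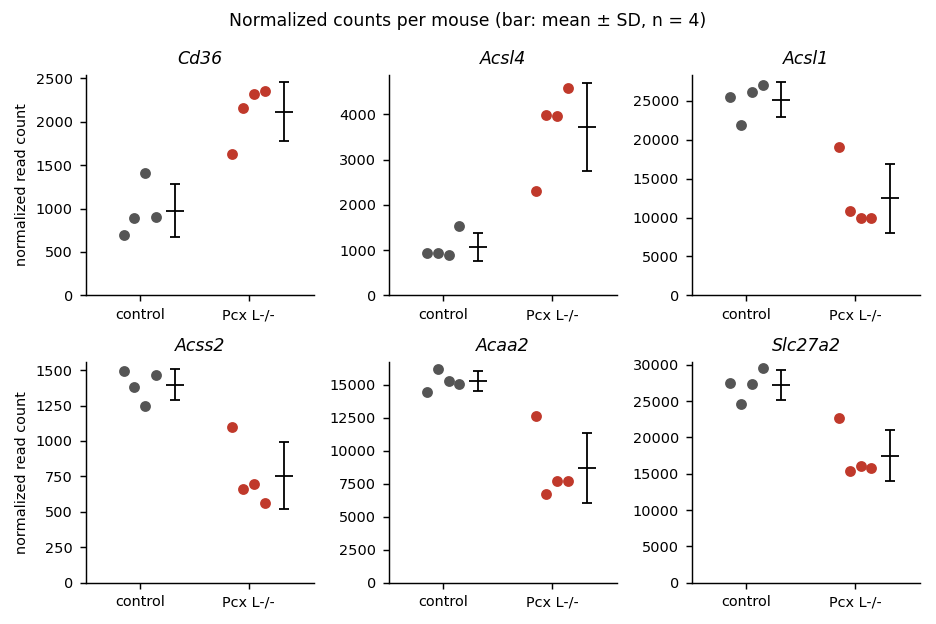
Normalized read counts of Cd36, Acsl4, Acsl1, Acss2, Acaa2 and Slc27a2 in each mouse (points, in replicate order from left to right), with the mean and SD of each genotype (n = 4) to the right. None of the 6 overlaps between genotypes, and Pcx L-/- replicate 1 is the Pcx L-/- mouse nearest to the controls in each panel.

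The total and the makeup of the Acsl family were compared per length, the unit in which levels of different genes can be set side by side. On this scale, the 4 Acsl transcripts summed to 319 ± 14.0 FPKM (SD, n = 4) in control and 278 ± 15.7 FPKM (SD, n = 4) in Pcx L-/- liver. Acsl1 made up 74.3% of that sum in controls (71.5 to 77.4% in single mice) and 50.4% in Pcx L-/- mice (41.3 to 65.8%). Acsl4 went from 3.37% (2.75 to 4.45%) to 16.8% (8.52 to 20.2%), and Acsl5, a synthetase of mitochondria and endoplasmic reticulum, from 21.5% (18.9 to 24.1%) to 31.8% (24.9 to 37.4%). The shares of these 3 genes did not overlap between genotypes in any mouse. Acsl3, which is linked to lipid droplets, stayed at 1.37% or less. The shares were not tested, since the share of one gene fixes part of the others.

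**Figure D4:**
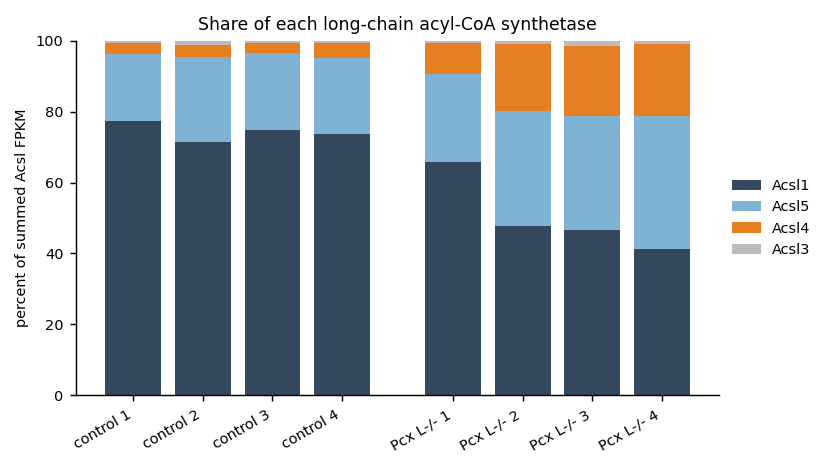
Share of each long-chain acyl-CoA synthetase in the summed FPKM of Acsl1, Acsl3, Acsl4 and Acsl5, one bar per mouse. Acsl1 takes 71.5% or more in each control and 65.8% or less in each Pcx L-/- mouse, and Acsl4 takes 4.45% or less in each control and 8.52% or more in each Pcx L-/- mouse.

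The bases before the starts of Acsl1 and Acsl4 are shown because these members had the strongest fall and the strongest rise. RefSeq gives Acsl1 a start at the 5′ end of the gene (chr8:46470787-46471036, plus strand) and another farther in (chr8:46490716-46490965, plus strand), and Acsl4 one start (chrX:142390536-142390785, minus strand). Counts per gene do not separate the Acsl1 transcripts of these starts. No capitals are used because no motif matched.
Acsl1, outer start: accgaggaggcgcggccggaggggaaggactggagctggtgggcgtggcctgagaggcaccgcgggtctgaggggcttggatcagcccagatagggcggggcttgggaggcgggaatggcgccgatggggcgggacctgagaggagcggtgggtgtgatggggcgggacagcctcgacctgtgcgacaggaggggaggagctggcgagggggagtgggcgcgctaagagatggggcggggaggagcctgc
Acsl1, inner start: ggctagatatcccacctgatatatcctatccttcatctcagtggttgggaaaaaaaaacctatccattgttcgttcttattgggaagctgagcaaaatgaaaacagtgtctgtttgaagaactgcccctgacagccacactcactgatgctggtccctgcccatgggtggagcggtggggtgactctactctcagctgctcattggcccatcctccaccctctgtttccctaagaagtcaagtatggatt
Acsl4: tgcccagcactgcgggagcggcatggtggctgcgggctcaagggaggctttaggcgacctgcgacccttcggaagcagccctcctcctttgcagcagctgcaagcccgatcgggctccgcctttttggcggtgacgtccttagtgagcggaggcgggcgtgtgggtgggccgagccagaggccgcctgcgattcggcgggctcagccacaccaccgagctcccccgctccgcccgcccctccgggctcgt

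Acss2, which makes acetyl-CoA from acetate in the cytosol and nucleus (chromosome 2 from 155517948 to 155585724), had 1495, 1382, 1247 and 1466 normalized counts in controls and 1097, 660.2, 698 and 566 in Pcx L-/- mice. No value overlapped, and Pcx L-/- replicate 1 was again the nearest to the controls. Acss2 had a log2 fold change of -0.89 (SE 0.18, adjusted p = 0.0056), which was called in all 20 alternatives (adjusted p from 4.88e-05 to 0.022). On the opposite strand Gss covers 3.89% of the exon bases of Acss2, with 7393 reads against 8437 over the 8 libraries. Ggt7 and Acss2os, also opposite, cover 1.94% and 3.30%, with 75 and 8 reads. Acss1, the mitochondrial acetate enzyme, had too few reads for a test, with 7, 10, 3 and 4 reads in controls and 10, 9, 12 and 2 in Pcx L-/- mice.

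The 3 listed medium-chain synthetases of the Acsm family all fell. Of its other genes, Acsm2, with few reads, was tested and did not pass (log2 fold change -0.33, adjusted p = 0.545), and Acsm4 was not tested. Acsm3 had 1396, 1507, 1459.7 and 1247 normalized counts in controls and 1268, 582, 762 and 631 in Pcx L-/- mice, so that Pcx L-/- replicate 1 lay within the control range and the others far below it. Its log2 fold change was -0.79 (adjusted p = 0.0191), and the call was lost without Pcx L-/- replicate 2 (0.0554), 3 (0.0550) or 4 (0.0654), within a range of 8.84e-05 to 0.0753 over the alternatives. Acsm1 (log2 fold change -0.40, adjusted p = 0.0293) and Acsm5 (-0.40, adjusted p = 0.0338) were at 75.9% of control each, and kept their calls in 9 and 6 of the 20 alternatives. The 3 listed genes lie in one cluster on chromosome 7, with 61474 bases between Acsm5 and Acsm1 and 98407 between Acsm1 and Acsm3, and as paralogs may share reads. On the opposite strand, Eri2 covers 39.7% of the exon bases of Acsm3, with 747 reads against 8740 over the 8 libraries, and the sources used here do not say whether counting used strand.

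None of the 4 listed and tested genes of the carnitine shuttle passed the test, where 27.6% of all genes tested did, and their median log2 fold change was -0.28. The translocase of the shuttle, Slc25a20, is not among the 36 but in the further list described at the end, and it fell from 3140.3 ± 181 to 2017.5 ± 467 normalized counts (SD, n = 4), a log2 fold change of -0.64 (adjusted p = 0.0107). It is named here after its values were seen. The other carnitine genes of that list, Slc22a5 (-0.30, adjusted p = 0.189) and Crot (0.15, adjusted p = 0.376), did not pass. Cpt1a, the carnitine palmitoyltransferase of the liver outer membrane and the rate-controlling step (ENSMUSG00000024900, chromosome 19 from 3322334 to 3385733), had 16770, 14933, 16199 and 24483 normalized counts in controls and 20298, 13874, 15977 and 15292 in Pcx L-/- mice. The genotypes overlapped widely, and the highest values came from control replicate 4 and Pcx L-/- replicate 1. Cpt1a had a log2 fold change of -0.15 (SE 0.19, adjusted p = 0.606). Its sign turned with scaling by library size only (0.14) and without control replicate 4 (0.03, adjusted p = 0.890), and no alternative called it, with adjusted p from 0.0882 to 0.890.

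Cpt2, the inner-membrane partner of Cpt1a (chromosome 4 from 107903981 to 107923610), had 3805, 3479, 4029.6 and 3571 normalized counts in controls and 3873, 2362, 2385 and 2558 in Pcx L-/- mice. Pcx L-/- replicate 1 lay among the controls and the other Pcx L-/- mice below all of them. The log2 fold change was -0.41 (SE 0.16, adjusted p = 0.0833), and -0.61 without that mouse (adjusted p = 0.00114), in a range of 0.00114 to 0.447 over the alternatives. Crat, carnitine acetyltransferase, had a log2 fold change of -0.45 (adjusted p = 0.0626), or -0.58 without Pcx L-/- replicate 1 (adjusted p = 0.00944). It was called in 5 of the 20 alternatives, with adjusted p from 0.00215 to 0.487. Mlycd, which degrades malonyl-CoA, the inhibitor of Cpt1a, had -0.06 (adjusted p = 0.776).

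Cpt1b, the muscle form, had few reads in any liver. Controls had 10, 9, 10 and 4 reads and Pcx L-/- mice 6, 11, 18 and 1, a difference of -0.60 in the mean of log2 (normalized count + 1), with p = 0.486 from an exact two-sided permutation test over the 8 mice. It made up 0.0793% of the summed FPKM of Cpt1a and Cpt1b in controls and 0.0677% in Pcx L-/- mice. A read-through gene on the same strand, Gm44502, shares 81.4% of the exon bases of Cpt1b. Gm44502 was not among the genes counted, so its part in the Cpt1b count is not known.

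Of the 15 genes of the oxidation spiral, 4 fell (Acaa2, Acads, Acadvl and Acadm), none rose and 11 did not pass, with a median log2 fold change of -0.26. Without Pcx L-/- replicate 1, 11 fell and none rose. Over all genes tested 13.5% fell in the main comparison and 17.8% without that mouse. With scaling by library size only, 1 spiral gene fell (Acaa2) and 1 rose (Eci1), where 6.61% of all genes fell and 29.7% rose. The acyl-CoA dehydrogenases open each round, and those for very long, medium and short chains were the ones lower. Acadm, the medium-chain dehydrogenase (chromosome 3 from 153922357 to 153944632), had 11164, 12232, 12771 and 9185 normalized counts in controls and 10077, 6606, 7368 and 7078 in Pcx L-/- mice. Control replicate 4 lay below Pcx L-/- replicate 1, and all others were apart. The log2 fold change was -0.54 (SE 0.17, adjusted p = 0.0326), and 10 of 20 alternatives kept the call (adjusted p from 0.00231 to 0.284). Among others, it was lost with scaling by library size only (0.157). It was also lost without control replicate 1 (0.0675), 2 (0.0710) or 3 (0.0949) and without Pcx L-/- replicate 2 (0.0993), 3 (0.0908) or 4 (0.105).

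Acadvl, the very long-chain dehydrogenase of the inner membrane, fell to 67.9% of control, from 5157 ± 236 to 3504 ± 552 normalized counts (SD, n = 4), without overlap. Its log2 fold change of -0.56 (SE 0.13, adjusted p = 0.00999) was lost only with scaling by library size (-0.28, adjusted p = 0.0589) among the 20 alternatives, whose lowest adjusted p was 0.000163. On the opposite strand Dvl2 covers 42.9% of its exon bases, with 956 reads against 34396. Acads, the short-chain dehydrogenase, fell from 3229 ± 298 to 2159 ± 499.6 normalized counts (SD, n = 4), a log2 fold change of -0.58 (adjusted p = 0.0190), kept in 12 alternatives and lost, among others, without control replicate 3 (0.0556) or Pcx L-/- replicate 2 (0.0629), 3 (0.0618) or 4 (0.0676). Its range over the alternatives was 0.000482 to 0.140. Acadl, the long-chain dehydrogenase, was at 87.1% of control (log2 fold change -0.20, adjusted p = 0.380).

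Of the less studied dehydrogenases none passed. Acad9, also an assembly factor of complex I, had a log2 fold change of -0.25 (adjusted p = 0.102), and Acad11, which acts on long-chain and hydroxylated substrates, -0.40 (adjusted p = 0.0544). Acad10 (-0.02, adjusted p = 0.927) and Acad12 (-0.26, adjusted p = 0.302) are neighbours on chromosome 5, with 2087 bases between them, and as close paralogs may share reads.

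Among the later enzymes of each round, 1 fell. Acaa2, the mitochondrial 3-ketoacyl-CoA thiolase that ends each round, had 14449, 16209, 15303 and 15070.4 normalized counts in controls and 12589, 6693, 7735 and 7729.6 in Pcx L-/- mice. No value overlapped, and Pcx L-/- replicate 1 lay nearer to the controls than to its own group. It fell to 56.9% of control, a log2 fold change of -0.81 (SE 0.19, adjusted p = 0.0102), called in all 20 alternatives (adjusted p from 5.72e-05 to 0.0415).

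Hadha, the alpha subunit of the trifunctional protein, which hydrates and dehydrogenates long chains (chromosome 5 from 30118304 to 30155162), had 10111, 10937, 11457 and 13092 normalized counts in controls and 9977, 8263, 8532 and 8967 in Pcx L-/- mice. The genotypes did not overlap, but Pcx L-/- replicate 1 was within a few percent of the lowest control, and the log2 fold change of -0.35 (SE 0.13, adjusted p = 0.0681) did not pass. Without Pcx L-/- replicate 1 it was -0.41 (adjusted p = 0.0183), and adjusted p ranged from 0.0136 to 0.656 over the alternatives. Hadhb, the beta subunit with the thiolase activity, is read in the opposite direction from the other side of a gap of 85 bases, and had a log2 fold change of -0.26 (adjusted p = 0.154). The Hadha to Hadhb ratio per length was 2.25 ± 0.330 in control and 2.10 ± 0.0581 in Pcx L-/- liver (SD, n = 4).

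The remaining spiral genes did not pass. Hadh, the short-chain hydroxyacyl-CoA dehydrogenase, had a log2 fold change of -0.53 (adjusted p = 0.0585), and Echs1, the short-chain hydratase, -0.23 (adjusted p = 0.349). The auxiliary enzymes for unsaturated fatty acids were Decr1, at -0.26 (adjusted p = 0.147), and Eci1, at 0.01 (adjusted p = 0.979). Without Pcx L-/- replicate 1 the value of Hadh was -0.73 (adjusted p = 0.00263), that of Echs1 -0.41 (adjusted p = 0.0379) and that of Decr1 -0.35 (adjusted p = 0.0303). That mouse had the highest Pcx L-/- value in each of these genes, so leaving it out lowers their group mean. Over the 20 alternatives Hadh was called in 6 (adjusted p from 0.00263 to 0.369), Echs1 in 1 (0.0379 to 0.907) and Decr1 in 2 (0.0303 to 0.918). Echs1 and Decr1 turned positive with scaling by library size only (0.03 and 0.02).

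In electron transfer 2 of 3 genes fell, both at no less than 67.4% of control, where 13.5% of all genes tested fell. With scaling by library size only, no gene of this step was called. Etfa, the alpha subunit, fell from 5823 ± 608 to 4035 ± 701 normalized counts (SD, n = 4), a log2 fold change of -0.53 (SE 0.15, adjusted p = 0.0202). Etfb, the beta subunit, had 5842 ± 427 and 5710.3 ± 595 (SD, n = 4), a log2 fold change of -0.03 (SE 0.12, adjusted p = 0.869) that turned to 0.25 with scaling by library size only. Etfdh, the ubiquinone oxidoreductase that takes their electrons, fell from 6824 ± 674 to 4597 ± 1136 (SD, n = 4), a log2 fold change of -0.57 (SE 0.17, adjusted p = 0.0289). Per length, the Etfb to Etfa ratio was 1.63 in controls (1.40 to 2.07 in single mice) and 2.29 in Pcx L-/- mice (2.05 to 2.53), so that control replicate 4 overlapped the Pcx L-/- mice. This ratio was not tested. An annotated gene on the same strand, Gm45233, shares 53.0% of the exon bases of Etfb. Gm45233 was not among the genes counted, so its part in the Etfb count is not known.

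The calls of Etfa and Etfdh were kept in 12 and 10 of the 20 alternatives. With scaling by library size only both lost their calls (adjusted p = 0.138 for Etfa and 0.113 for Etfdh). Etfa also lost its call without control replicate 3 (adjusted p = 0.0561) and without Pcx L-/- replicate 2 (0.0673), 3 (0.0650) or 4 (0.0728), with a range of 0.00137 to 0.221. Etfdh also lost its call without control replicate 1 (0.0648), 2 (0.0647) or 3 (0.0725) and without Pcx L-/- replicate 2 (0.0886), 3 (0.0834) or 4 (0.0941), with a range of 0.000736 to 0.181.

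Per length, the members spanned more than 4 orders of magnitude. In controls Fabp1 led with 2374 ± 853.8 FPKM, followed by Acaa2 (538 ± 44.3), Slc27a2 (498 ± 21.8), Etfb (358 ± 7.42), Dbi (357 ± 113) and Acadm (297 ± 54.2, all SD, n = 4). Acaa2 and Slc27a2, Etfb and Dbi, and Dbi and Acadm did not differ beyond their spread. In Pcx L-/- liver the values after Fabp1 (1660 ± 327) were those of Etfb (426 ± 19.0), Slc27a2 (385 ± 39.7) and Acaa2 (366 ± 74.5), the last of which did not differ from Slc27a2 beyond its spread. Acsl1 went from 238 ± 16.2 to 141 ± 35.4 FPKM and Acsl4 from 10.7 ± 2.31 to 46.4 ± 14.6. FPKM values are scaled by library size only, and on this scale Cpt1a had a higher mean in Pcx L-/- (245 ± 20.6) than in control liver (222 ± 38.8).

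**Figure D5:**
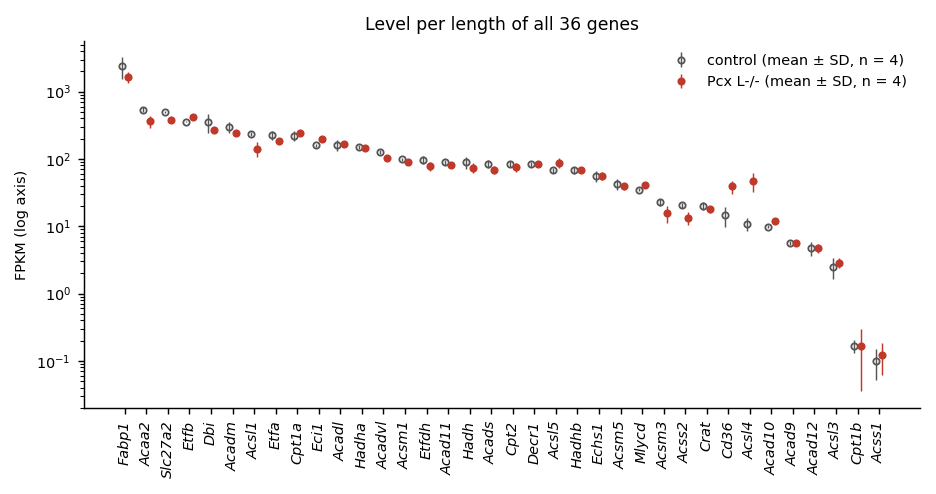
Mean FPKM (± SD, n = 4) of all 36 members in control and Pcx L-/- liver on a log axis, ordered by the control level. Fabp1 is the highest in both genotypes, Cpt1b and Acss1 are the lowest with means under 0.2 FPKM, and Cd36 and Acsl4 show the widest upward separation.

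Summed by step, control livers held 3243 ± 955 FPKM of uptake and binding transcripts against 2355 ± 346 in Pcx L-/- livers, and 504 ± 22.4 against 438 ± 19.0 of activation transcripts. Only the activation sums did not overlap between genotypes, with 481 to 524 in controls and 416 to 462 in Pcx L-/- mice. The carnitine shuttle summed to 361 ± 32.8 and 379 ± 34.2, the spiral to 1925 ± 191 and 1679.5 ± 151, and electron transfer to 680.4 ± 45.9 and 691 ± 32.8 (all SD, n = 4). These sums were not tested and follow their most abundant members.

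A further list of 39 genes of the same pathway and its control was compared for context. Of these 36 were tested, 2 rose and 11 fell, where 14.1% of all genes tested rose and 13.5% fell. Their median log2 fold change was -0.38, near the members' -0.40. The 3 highest values were those of Fabp5, a fatty acid-binding protein (1.46, adjusted p = 0.0012), Acsf3, the mitochondrial malonyl-CoA synthetase (0.86, adjusted p = 0.000964), and Slc27a4, a transport protein that did not pass (0.17, adjusted p = 0.568). The 3 lowest were those of Slc27a5, the bile acid-CoA ligase and transport protein of liver (-1.12, adjusted p = 0.0028), Slc27a1, another transport protein (-1.03, adjusted p = 0.0101), and Hsd17b10, a mitochondrial hydroxyacyl-CoA dehydrogenase (-0.99, adjusted p = 0.0028). Acsl6, Acsbg1 and Acsm4 had too few reads to be tested.

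Of 7 listed markers of hepatocytes 6 were found and tested. Of these 3 fell (Apoa1, Apob and Serpina1a) and none rose, where 13.5% of all genes tested fell. Their median log2 fold change was -0.71, where that of the members tested was -0.40. The summed FPKM of the hepatocyte markers was 31590 to 40240 in Pcx L-/- and 44430 to 48390 in control livers, without overlap. In bulk RNA, fewer cells of a type and less RNA per cell cannot be told apart. None of 6 stellate cell or 5 red blood cell markers was called, 1 of 5 cholangiocyte markers was lower, and the summed FPKM of the stellate list was 51.9 to 124.0 against 53.5 to 124.6. Of 6 adipose markers Lep and Retn were at 0 reads in all libraries, and only Fabp4, with 1044 reads over the 8 libraries, was tested. Of 6 muscle markers Acta1 was at 0 reads, and only Mylpf, with 103 reads, was tested. Neither Fabp4 nor Mylpf was called, and the other markers of both lists had too few reads for a test. The part of the hepatocyte markers' decline and of red blood cell RNA in the lower members was not tested. Pcx L-/- replicate 1, the library with the most red blood cell RNA, was also the only Pcx L-/- mouse of the 500s. It lay nearest to the controls in 13 of the 14 members that fell. Without this mouse the members' median log2 fold change was -0.45, a value that cannot separate these traits of the library.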

How the data were processed

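Total RNA of 8 livers was sequenced, 1 library per mouse. Reads were mapped by the authors to GRCm38 (mm10), and the table they deposited gives raw counts of reads for each Ensembl gene. The submitters' processing notes name STAR 2.5, HTSeq 0.6.1 and DESeq2. Annotation release and strand setting: not given in the sources used here. A second deposited table holds FPKM, of which all 142384 non-zero entries (100%) are the count divided by a gene length and the library total within a relative tolerance of 1e-06. Neither table held columns of other samples.

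Symbols came from GENCODE M21, which matched 34490 of 35275 identifiers (97.8%). Counts were tested with edgeR 4.0.16 (R 4.3.3): TMM factors, filterByExpr (min.count 10, min.total.count 15), genotype as the only term, the quasi-likelihood F test with 6 residual degrees of freedom and Benjamini-Hochberg adjustment over 13168 genes. The common biological coefficient of variation was 0.181. Approximate standard errors were taken as |log2 fold change|/√F. Replicates are separate mice. With 4 mice against 4, the smallest p an exact two-sided permutation test can give is 0.0286. The fits were also run on simulated counts, with the same spread for all genes and as many genes raised as lowered. That run does not bear on the choice of scaling.

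Members and lists were chosen with earlier results of these data known. All members are named, with values in every mouse for those called at 1.5-fold or more, for Cpt1a, Cpt2, Acadm and Hadha, and for those with few reads, and of the further pathway list the 3 highest and 3 lowest. Other genes of that list were named after its values were seen. Alternatives (20 in all) were DESeq2 size factors, library size only, no filter, a filter at 1 CPM in 4 libraries, DESeq2 1.42.0 with and without apeglm 1.24.0, limma 3.58.1 on log2(FPKM + 1) with and without the filter and on log2(FPKM + 0.1), a replicate block, the mouse number series as a covariate or mice of the 800s only (added after seeing the data), and each mouse left out in turn. Protein sequences are not analysed here.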

Additional observations from a re-analysis of the deposited data

Results flagged for a closer look

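Of the 72 groups of 4 values that the members give, 8 held a value far from the other 3 of its group by Dixon's criterion at the 95% level, where chance gives about 1 in 20. In 7 of them the value was the highest of the Pcx L-/- group and came from replicate 1, with normalized counts of 22700 for Slc27a2, 19100 for Acsl1, 3870 for Cpt2, 2280 for Mlycd, 2900 for Acads, 5530 for Acad11 and 5080 for Etfa. The genes of these 7 share a library and are not independent of each other. That library also had 5338 summed FPKM of red blood cell markers, against 559 to 1412 in the other Pcx L-/- livers, and 758 normalized Pcx counts, the highest of its group but far under the lowest control, 14371. Its mouse number is of the 500s, while those of the other Pcx L-/- mice are of the 800s. The part of these in the values of the library was not tested.

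The other was Acsl4 in control replicate 4, with 1530 normalized counts beside 900 to 940 in the other controls. This value still lay below the lowest Pcx L-/- value, 2314.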

How the results depend on the processing

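Cd36 and Acsl4 were higher, and Acsl1, Acss2 and Acaa2 lower, with an adjusted p under 0.05 in all 20 alternatives. The number of members that fell depended on the scaling and on single mice. It was 14 in the main comparison, 5 with library size only (where 4 rose), 6 by limma on log2(FPKM + 1) and on log2(FPKM + 0.1), and 5 by limma without the filter, where 6.61%, 6.25%, 6.24% and 2.93% of all genes fell. With each mouse left out it ranged from 4 to 23, while the members that rose stayed at 2 and the genes altered ranged from 2109 to 4602. DESeq2's Wald test called 18 lower and 2 higher, beside 13.9% and 13.4% of all genes. Under library size only, 7 of the 16 called members kept their call, and 6 did without Pcx L-/- replicate 3 or 4. The members' median log2 fold change lay between -0.50 and -0.11 and was below 0 throughout, and the members without overlap numbered 18 without control replicate 4 and 24 without Pcx L-/- replicate 1, where 4737 and 5455 (41.4%) of all 13168 genes tested did not overlap. The cause of the other changes was not tested.

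No called member changed sign in any alternative. Among those not called, the log2 fold change turned positive with library size only, by limma on log2(FPKM + 1) (the same value with and without the filter) and by limma on log2(FPKM + 0.1), in that order, for Acsl3 (0.20, 0.17 and 0.24), Cpt1a (0.14, 0.15 and 0.15), Mlycd (0.22, 0.21 and 0.22), Acadl (0.064, 0.083 and 0.084), Acad9 (0.023, 0.021 and 0.025), Acad10 (0.26, 0.24 and 0.26), Acad12 (0.012, 0.021 and 0.027), Hadhb (0.017, 0.024 and 0.025), Echs1 (0.027, 0.039 and 0.040), Decr1 (0.017, 0.018 and 0.018) and Etfb (0.25, 0.25 and 0.25). With mice of the 800s only it was 0.16 for Acsl3 and -0.082 for Eci1. Eci1 also turned with DESeq2 size factors (-0.005), with DESeq2's Wald test (-0.0023) and with apeglm (-0.002). With each mouse left out the value ranged from -0.18 to 0.15 for Acsl3, -0.017 to 0.12 for Acsl5, -0.27 to 0.034 for Cpt1a, -0.13 to 0.032 for Acad10, -0.041 to 0.045 for Eci1 and -0.10 to 0.017 for Etfb.

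Replicate numbers did not pair the mice. The correlation of deviations from the group means between mice of the same number was 0.096, -0.127, -0.094 and -0.068, and 1 of 4 mice correlated best with its own number. With a replicate block 2975 genes were altered, 2 members rose and 11 fell, where 11.3% of all genes fell. Depth, at 12016242 reads or more per library, left Cpt1b and Acss1 with too few reads to show a difference.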
